A study of Mus musculus with 4 samples.

Results

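The genes described here are Il10, which encodes the anti-inflammatory cytokine interleukin-10, Il10ra, which encodes the ligand-binding chain of its receptor, and 6 transcription factor genes that act in effector Treg cells, Maf, Prdm1, Batf, Gata3, Bcl6 and Ikzf3. These 8 genes were chosen by symbol. They and the gene lists below were chosen with earlier results of these data known, so counts of genes called among them are descriptions. All 8 were among the 19044 genes of the count table. All 8 also had a mean level of at least 5 CPM over the 4 libraries, as did 9680 genes in all. CPM is a gene's count scaled to a common library total, here after TMM adjustment. Il10 was under 5 CPM in 1 library, WT rTreg, and met this minimum through the other libraries.

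The samples were regulatory T (Treg) cells from the spleen and peripheral lymph nodes of untreated mice, measured by RNA sequencing. WT mice were Foxp3-YFP-Cre, and knockout mice were Ripk1fl/fl Foxp3-YFP-Cre, in which Cre made from the Foxp3 gene acts on the floxed Ripk1 gene in Foxp3-expressing cells. Both genotypes thus carry the Cre and the yellow fluorescent protein. Each genotype gave 1 rTreg and 1 aTreg library, and the letters r and a, which in this field commonly stand for resting and activated, are not explained in the labels. How many mice were used, their age and sex, any pooling and the sort gates were not stated in the labels.

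Interleukin-10 limits inflammation by acting through a receptor made of IL-10RA and IL-10RB, which signals through the kinases JAK1 and TYK2 to STAT3. Among Treg cells it is made mainly by effector cells, in which Blimp-1 (encoded by Prdm1) and c-Maf (Maf) promote its transcription and BATF, an AP-1 family factor, helps to establish the effector state. GATA3 supports Treg cells in tissues, BCL6 directs the follicular program and represses Prdm1, which represses Bcl6 in turn, and Aiolos (Ikzf3) is an Ikaros family zinc finger factor of lymphocytes.

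The libraries held 17588754 to 20868319 counts. Ripk1 RNA did not distinguish the genotypes, with 83.6 and 77.5 CPM in WT rTreg and aTreg and 84.7 and 80.8 CPM in those labelled knockout (edgeR adjusted p = 0.658). Reads from exons outside the floxed part would still be counted, so this is a weak check. KO-labelled is used below for these libraries. The genotypes also differed in sex-linked RNA. Xist was at 299 and 338 CPM in WT rTreg and aTreg and at 0.284 and 0.213 CPM in the KO-labelled libraries, while the Y-linked Ddx3y was at 97.5 to 126 CPM in all 4. This difference runs along with every genotype comparison below, and its part in them was not tested. The 7 Treg markers, among them Foxp3 (619 to 694 CPM), summed to 3417 to 3749 CPM per library.

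Ratios are log2 values, of KO-labelled over WT for genotype and of aTreg over rTreg for state. Every group is 1 library, so ratios between 2 libraries have no replicate check, and brackets give 95% intervals for counting error only. Tests are edgeR's quasi-likelihood test, fitted to the 4 libraries with a term for state and a term for genotype, so that 1 residual degree of freedom remains. With 1 library per group, that degree of freedom is how far a gene's genotype ratio differs between the states. The p-values measure effects against that departure, with information shared over genes. They hold no spread between replicate libraries or between mice. A gene "rose" or "fell" where the Benjamini-Hochberg adjusted p was under 0.05. In these sorted-cell bulk samples, fewer cells that express a gene and less RNA per cell cannot be told apart.

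For state, 6 of the 8 genes rose in aTreg, none fell, and Bcl6 and Ikzf3 were not called, where 13.4% of all tested genes were called (7.91% higher and 5.44% lower). For genotype, 6 of the 8 rose and 1, Bcl6, fell in the KO-labelled libraries, and Il10 was not called, where 47.2% of all tested genes were called (24.4% higher and 22.8% lower). Most sizes were moderate. Between genotypes, 1 of the 8, Prdm1, was at least 2-fold apart in rTreg (4.75% of all tested genes, 3.41% higher and 1.34% lower) and 1, Bcl6, in aTreg (6.12%, 3.95% higher and 2.17% lower). Between states, Il10, Maf and Prdm1 were at least 2-fold apart in WT (2.59% of all tested genes, 1.87% higher and 0.723% lower) and Il10 alone in the KO-labelled pair (1.08%, 0.95% higher and 0.134% lower). The median log2 ratio of KO-labelled over WT for the 8 genes was 0.56 in rTreg and 0.24 in aTreg, against 0.0075 and 0.0011 over all tested genes. Between states, the median of aTreg over rTreg was 0.69 log2 units for WT and 0.57 for the KO-labelled pair, against 0.00097 and 0.0041 over all tested genes. With the states as replicates, 1 of the 8 genes, Bcl6, passed for genotype, as did 1626 of all 9680 tested genes. With the genotypes as replicates, edgeR called none of the 8 and none of all tested genes for state, and Il10, Il10ra and Maf had an unadjusted p under 0.05, as had 3.39% of all tested genes. DESeq2 with both terms called 6 of the 8 for state, and 423 of all 9680 tested genes. For genotype it called 5 of the 8, without Gata3 and Ikzf3, and 2527 of all tested genes. Upper-quartile scaling left 6 of the 8 for genotype, without Ikzf3, and 4700 of all tested genes.

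**Figure D1:**
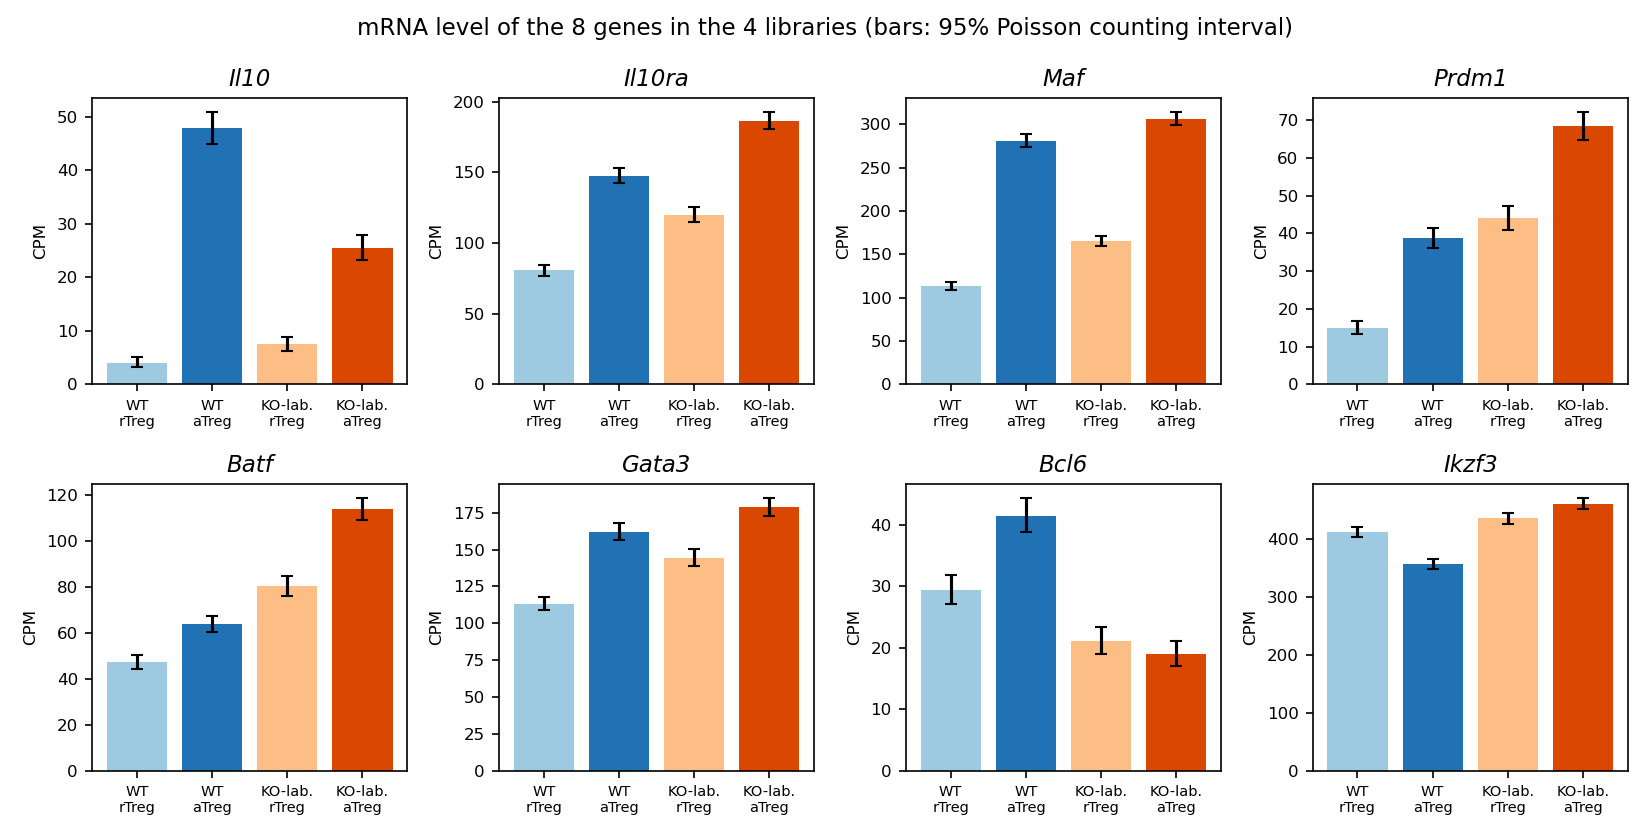
Level of each of the 8 genes in CPM (vertical axis, from 0) in the 4 libraries (1 bar each), with error bars for the 95% Poisson counting interval. Il10 is highest in WT aTreg (47.9 CPM), Bcl6 is lower in each KO-labelled library than in either WT library, and Batf and Prdm1 are higher in each KO-labelled library than in either WT library.

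Il10, the cytokine gene (GRCm38 chromosome 1, 131019845 to 131024974, plus strand), was at 4.05 CPM in WT rTreg and 47.9 CPM in WT aTreg, against 7.44 and 25.5 CPM in the KO-labelled rTreg and aTreg libraries. These levels rest on 85, 986, 131 and 479 counts. Both aTreg libraries thus lay above both rTreg libraries, and the genotypes took opposite order in the states: the KO-labelled library was the higher of the rTreg pair and the lower of the aTreg pair. The log2 ratio of KO-labelled over WT was 0.86 [0.47 to 1.29] in rTreg and -0.90 [-1.07 to -0.75] in aTreg. In aTreg the KO-labelled level was 1.87-fold lower.

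The state ratio of Il10 was larger in WT than in the KO-labelled pair. It was 11.6-fold in WT (log2 3.53 [3.24 to 3.90]) and 3.40-fold in the KO-labelled pair (log2 1.77 [1.5 to 2.07]). Over both genotypes Il10 rose by 2.65 log2 units in aTreg (SE 0.282, edgeR adjusted p = 6.15e-05). The additive genotype term, which averages 2 ratios of opposite sign, was -0.29 (SE 0.273, edgeR adjusted p = 0.398). The genotype ratio in aTreg minus that in rTreg was -1.77 log2 units [-2.21 to -1.36]. This was the second lowest value of that difference among the 9680 tested genes, and it has no test, since a model with an interaction leaves no residual degree of freedom. On the deposited variance-stabilised scale the Il10 ratios kept their signs and were smaller, at 0.30 in rTreg and -0.61 in aTreg between genotypes, and at 1.82 for WT and 0.90 for the KO-labelled pair between states.

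**Figure D2:**
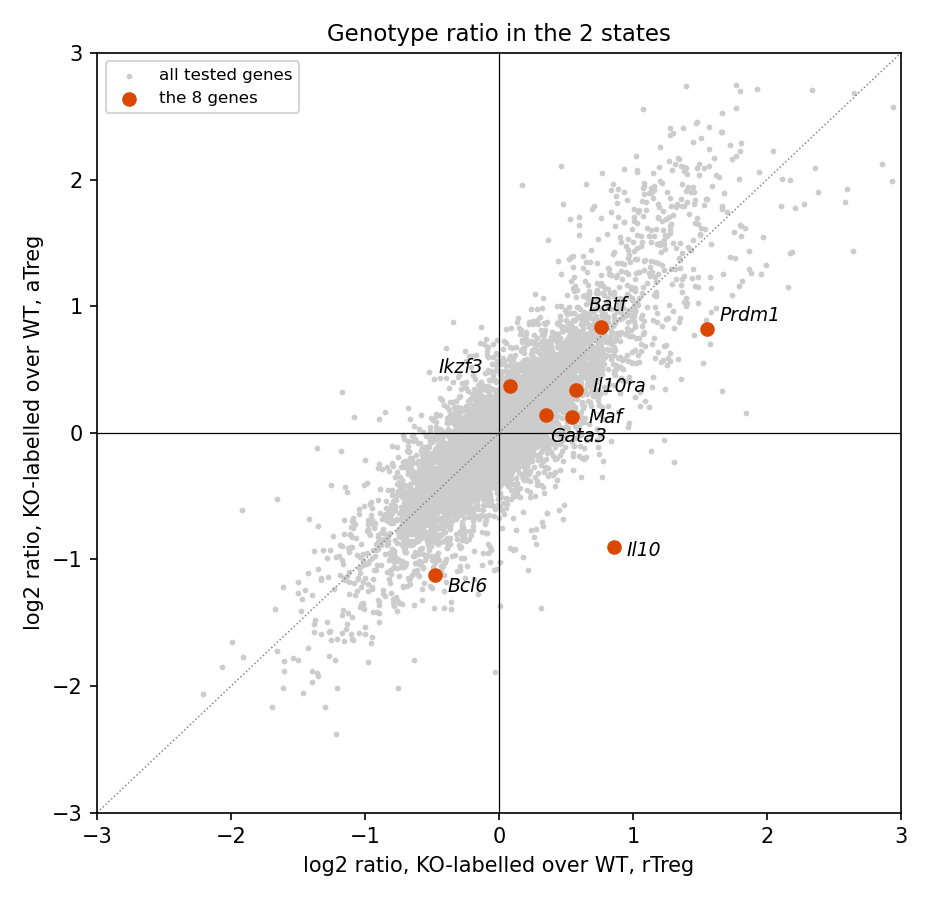
Log2 ratio of KO-labelled over WT in rTreg (horizontal axis) and in aTreg (vertical axis) for all tested genes (grey) and the 8 genes (orange), with the line of equal ratios dotted. The axes end at 3 in both directions, which leaves out 18 genes, and Il10 lies apart at 0.86 and -0.90.

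Il10ra, the receptor gene (chromosome 9, 45253837 to 45269149, minus strand), was at 80.6 CPM in WT rTreg and 148 CPM in WT aTreg, against 120 and 187 CPM in the KO-labelled rTreg and aTreg libraries. It was higher in aTreg in each genotype and higher in the KO-labelled library in each state. Il10ra rose with state by 0.75 on the log2 scale (SE 0.0729, edgeR adjusted p = 3.17e-05) and with genotype by 0.45 (SE 0.0727, edgeR adjusted p = 0.000252). Its genotype ratio was 0.57 [0.48 to 0.67] in rTreg and 0.34 [0.27 to 0.41] in aTreg. In aTreg, the cytokine and its receptor chain therefore took opposite order between the genotypes.

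Among other genes of IL-10 receptor signalling, Stat3 and Bcl3 rose and Jak1 and Tyk2 fell with genotype, and Tyk2 and Socs3 rose with state. Il10rb, the partner receptor chain, was at 43.1 and 48.0 CPM in the WT rTreg and aTreg libraries and 43.1 and 44.0 CPM in the KO-labelled ones and was not called in either comparison. Bcl3, an atypical IkappaB protein that IL-10 can induce, had genotype ratios of 0.80 in rTreg and 0.82 in aTreg, whereas Stat3, the main transducer of IL-10, had 0.24 and 0.21. The kinase gene Jak1 had ratios of -0.35 and -0.21 and Tyk2 -0.38 and -0.16. Socs3, a feedback inhibitor induced by STAT3, was at 221, 297, 222 and 242 CPM in the libraries in that order, and was not called for genotype (edgeR adjusted p = 0.143). The IL-10 family cytokines Il19 and Il22 were each at or below 0.146 CPM in every library.

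Maf (chromosome 8, 115682942 to 115707794, minus strand), which encodes c-Maf, a bZIP factor that binds and activates the Il10 gene in T cells, was at 113 CPM in WT rTreg and 281 CPM in WT aTreg, against 165 and 307 CPM in the KO-labelled rTreg and aTreg libraries. The aTreg libraries stood apart from the rTreg libraries, and the genotypes were closer in aTreg than in rTreg. Maf rose with state by 1.10 log2 units (SE 0.0890, edgeR adjusted p = 7.38e-06), with ratios of 1.31 [1.24 to 1.38] for WT and 0.89 [0.83 to 0.96] for the KO-labelled pair. It rose with genotype by 0.33 (SE 0.0883, edgeR adjusted p = 0.00838), with ratios of 0.54 [0.47 to 0.62] in rTreg and 0.13 [0.072 to 0.18] in aTreg. The antisense gene Gm15655 overlaps Maf, as Gm20612 overlaps Il10ra and Gm37419 overlaps Bcl6 on the opposite strand. Whether counting used the strand was not stated in the labels, so reads from such partners cannot be told apart here.

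Prdm1 (chromosome 10, 44437177 to 44528501, minus strand), which encodes Blimp-1, a zinc finger repressor that promotes terminal differentiation, had the highest genotype ratio of the 8 genes in rTreg. It was at 14.9 CPM in WT rTreg and 38.7 CPM in WT aTreg, against 44.0 and 68.4 CPM in the KO-labelled rTreg and aTreg libraries, so that the KO-labelled rTreg library lay above the WT aTreg library. In rTreg the KO-labelled level was 2.94-fold that of WT, a log2 ratio of 1.55 [1.37 to 1.75], and in aTreg it was 1.77-fold, a log2 ratio of 0.82 [0.69 to 0.95]. Over both states Prdm1 rose with genotype by 1.16 log2 units (SE 0.138, edgeR adjusted p = 2.39e-05). It also rose with state by 0.97 (SE 0.138, edgeR adjusted p = 0.000509), with ratios of 1.37 [1.18 to 1.57] for WT and 0.64 [0.51 to 0.77] for the KO-labelled pair.

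Plasma cells also express Prdm1, and some of their genes moved with genotype. The 6 plasma cell markers summed to 345 and 581 CPM in WT rTreg and aTreg and to 754 and 706 CPM in the KO-labelled libraries. Nearly all of this was Ighm, at 343 to 732 CPM. Igkc was at 1.0 and 1.51 CPM in WT rTreg and aTreg and at 20.7 and 16.0 CPM in KO-labelled rTreg and aTreg. Jchain, which joins secreted antibodies, was low and higher in the KO-labelled libraries, with 3 and 5 counts in WT rTreg and aTreg (0.143 and 0.243 CPM) and 27 and 16 counts in the KO-labelled ones (1.53 and 0.853 CPM). Sdc1 was not higher there, at 0.238 and 0.486 CPM in WT rTreg and aTreg and 0.227 and 0.160 CPM in the KO-labelled ones. Mzb1 was at 0.0476 to 0.107 CPM, and Tnfrsf17 was without a count in 3 of the 4 libraries. The part of plasma cell RNA in the genotype difference of Prdm1 was not tested. A count of 0 allows up to 3 counts, which is 0.143 to 0.170 CPM here.

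Batf (chromosome 12, 85686669 to 85709087, plus strand), which pairs with JUN proteins and IRF4 at composite DNA elements, was at 47.3 CPM in WT rTreg and 63.9 CPM in WT aTreg, against 80.3 and 114 CPM in the KO-labelled rTreg and aTreg libraries. Its genotype ratio was close in the states, at 0.76 [0.64 to 0.88] in rTreg and 0.83 [0.73 to 0.93] in aTreg, and the difference between them was 0.071 [-0.082 to 0.22]. Batf rose with genotype by 0.80 on the log2 scale (SE 0.0693, edgeR adjusted p = 1.78e-06) and with state by 0.47 (SE 0.0691, edgeR adjusted p = 0.000661). Its state ratios were 0.43 [0.31 to 0.55] for WT and 0.50 [0.41 to 0.60] for the KO-labelled pair. In the authors' deposited table, which compares the genotypes, Batf had an adjusted p of 0.00349, and Bcl6 one of 0.00459, while the other 6 genes had values from 0.277 to 0.873.

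Gata3 (chromosome 2, 9857078 to 9890034, minus strand) was at 113 CPM in WT rTreg and 162 CPM in WT aTreg, against 144 and 179 CPM in the KO-labelled rTreg and aTreg libraries. Each aTreg library was above each rTreg library. Gata3 rose with state by 0.41 log2 units (SE 0.0707, edgeR adjusted p = 0.00188). It rose with genotype by 0.24 (SE 0.0706, edgeR adjusted p = 0.0127), with ratios of 0.35 [0.27 to 0.43] in rTreg and 0.14 [0.073 to 0.21] in aTreg. DESeq2 with the same terms did not call the genotype difference of Gata3 (adjusted p = 0.120). Genes annotated on either strand overlap Gata3, so a part of its reads may not be its own.

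Ikzf3 (chromosome 11, 98464902 to 98546031, minus strand), the Aiolos gene, varied least over the libraries, at 412 CPM in WT rTreg and 356 CPM in WT aTreg, against 435 and 461 CPM in the KO-labelled rTreg and aTreg libraries. Its state ratio was -0.21 [-0.25 to -0.16] for WT and 0.081 [0.037 to 0.13] for the KO-labelled pair, and the additive test did not call it for state (edgeR adjusted p = 0.664). It rose with genotype by 0.23 log2 units (SE 0.0784, edgeR adjusted p = 0.0311), with ratios of 0.080 [0.036 to 0.12] in rTreg and 0.37 [0.33 to 0.42] in aTreg. This call was lost with upper-quartile scaling (edgeR adjusted p = 0.0790) and with DESeq2 (adjusted p = 0.114). With upper-quartile scaling its ratio in rTreg was 0.029.

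Bcl6 (chromosome 16, 23965052 to 23988852, minus strand), which encodes a repressor that directs the follicular program, was the 1 gene of the 8 that fell with genotype. It was at 29.4 CPM in WT rTreg and 41.5 CPM in WT aTreg, against 21.1 and 19.0 CPM in the KO-labelled rTreg and aTreg libraries. Each KO-labelled library lay below each WT library, and WT aTreg was the highest of the 4. The genotype ratio was -0.48 [-0.67 to -0.30] in rTreg and -1.13 [-1.31 to -0.95] in aTreg, where the KO-labelled level was 2.18-fold lower. Bcl6 fell with genotype by 0.81 log2 units (SE 0.141, edgeR adjusted p = 0.000448). Its state ratio was 0.49 [0.34 to 0.65] for WT and -0.15 [-0.36 to 0.063] for the KO-labelled pair, and the test did not call it for state (edgeR adjusted p = 0.405). B cells also express Bcl6: the 7 B cell markers summed to 12.9 to 19.3 CPM per library. Most of this was Cd79b, with 8.77 and 14.1 CPM in WT rTreg and aTreg and 11.4 and 12.9 CPM in the KO-labelled ones, and Cd79a, at 3.16 to 5.22 CPM. The state ratio of Cd79b was 0.68 [0.41 to 0.96] for WT, the direction of Bcl6. Ms4a1 was at 0 to 0.194 CPM and Blnk was without a count in 3 of the 4 libraries. The part of B cell RNA in the values of Bcl6 was not tested.

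**Figure D3:**
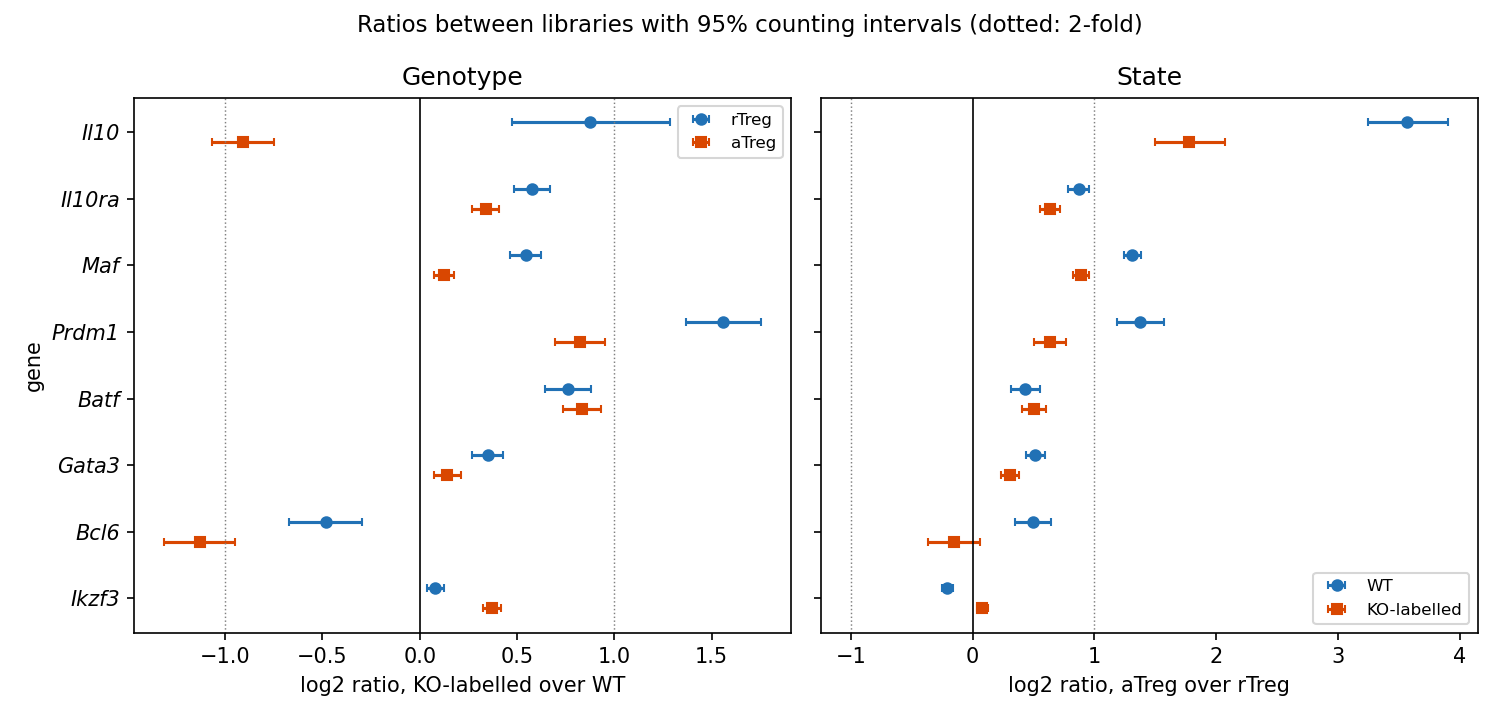
Log2 ratios of the 8 genes between genotypes (left, circles for rTreg and squares for aTreg) and between states (right, circles for WT and squares for the KO-labelled pair), each from counts without a prior count, with 95% counting intervals and dotted lines at a 2-fold difference. Il10 is to the right of 0 in rTreg and to the left in aTreg, Bcl6 is to the left in both, and the other 6 genes are to the right in both.

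Prdm1 and Bcl6 took opposite directions with genotype. Their log2 ratios of aTreg over rTreg were 1.37 and 0.49 for WT and 0.64 and -0.15 for the KO-labelled pair. Whether either gene acted on the other here was not tested. The bases before their annotated starts are shown (RefSeq, GRCm38.p6, 250 bases ending at the base before the start, 5′ to 3′ on the minus strand, the strand of both genes). Capitals mark matches, on either strand, to motifs searched in all promoters: TGCTGAC (part of a Maf element), TGANTCA (AP-1, bound by BATF with JUN proteins), GATAA (GATA factors), AGNGAAAG (Blimp-1), TTCNNNGAA (STAT factors, close to the BCL6 element) and TGGGAA (Ikaros family). The promoter table held 4 of the 8 genes, Prdm1, Batf, Gata3 and Bcl6, the last with 2 starts.
Prdm1, chr10:44458749-44458998: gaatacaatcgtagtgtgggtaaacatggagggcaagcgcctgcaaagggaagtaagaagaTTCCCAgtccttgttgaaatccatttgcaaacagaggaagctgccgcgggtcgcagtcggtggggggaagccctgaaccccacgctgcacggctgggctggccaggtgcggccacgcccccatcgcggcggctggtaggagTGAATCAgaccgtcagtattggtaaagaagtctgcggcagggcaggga
Bcl6, upstream start, chr16:23988853-23989102: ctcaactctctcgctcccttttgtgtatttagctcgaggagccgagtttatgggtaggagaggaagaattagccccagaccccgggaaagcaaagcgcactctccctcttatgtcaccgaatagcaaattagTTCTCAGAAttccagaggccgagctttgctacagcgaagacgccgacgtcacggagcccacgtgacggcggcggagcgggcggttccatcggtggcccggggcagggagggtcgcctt
Bcl6, downstream start, chr16:23981284-23981533: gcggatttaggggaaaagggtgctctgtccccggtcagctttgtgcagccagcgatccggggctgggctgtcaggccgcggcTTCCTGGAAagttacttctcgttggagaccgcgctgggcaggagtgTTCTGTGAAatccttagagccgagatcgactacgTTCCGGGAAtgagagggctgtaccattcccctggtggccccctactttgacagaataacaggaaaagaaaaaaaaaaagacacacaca
The Prdm1 and downstream Bcl6 windows lie in introns of the longer gene models. The Prdm1 window holds 1 AP-1 match, TGAATCA, starting 48 bases before the start, and 1 Ikaros family match, TTCCCA. The downstream Bcl6 window holds 3 matches to TTCNNNGAA, starting 168, 122 and 88 bases before the start, and the upstream window holds 1, starting 118 bases before. No matches in these windows overlap. An AP-1 match is found in 6.75% of all 32851 windows of this length, a TTCNNNGAA match in 7.02% and a TGGGAA match in 21.6%. Neither gene's windows hold a match to AGNGAAAG (7.30% of all windows) or TGCTGAC (3.81%). A match describes the letters and not binding, and a missing match describes this window alone.

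Compared per length (CPM per kilobase of all annotated exons of a gene), Batf had the highest mean level over the 4 libraries, at 54.3, followed by Ikzf3 at 47.5, Il10ra at 38.2, Gata3 at 37.6, Maf at 26.3, Il10 at 16.2, Prdm1 at 7.44 and Bcl6 at 4.14. The ranges over libraries overlapped between all neighbours in this order, for example 33.7 to 81.0 for Batf and 40.7 to 52.6 for Ikzf3. As a ratio of its highest to its lowest library, Il10 ranged the most, from 3.09 in WT rTreg to 36.6 in WT aTreg.

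The genes with the most similar pattern were found by the root mean square difference of log2 CPM over the 4 libraries, after each gene's mean was subtracted. Il10 had no close match: the nearest were the repressor gene Hic1 at 0.35, Sccpdh at 0.36 and the enkephalin precursor gene Penk at 0.41. Hic1 was at 4.29 and 27.1 CPM in the WT rTreg and aTreg libraries and 5.17 and 15.3 CPM in the KO-labelled ones, the same order of libraries as Il10. The other 7 genes had matches within 0.097. They were Ntng2 for Il10ra (0.031), the receptor tyrosine kinase gene Axl for Maf (0.040), Tg for Prdm1 (0.097) and St6galnac6 for Batf (0.018), whose next match was the glycolytic enzyme gene Aldoa (0.026). For Gata3 they were Ccdc32 (0.017) and Nfkbie (0.024), which encodes IkappaB epsilon. For Bcl6, Arhgef5 (0.035), Snx30 (0.036) and Nrp1 (0.044), the Treg surface receptor neuropilin-1, were nearest, and for Ikzf3 the sterol enzyme gene Dhcr7 (0.013). With 4 libraries many genes share a pattern, so these are descriptions.

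**Figure D4:**
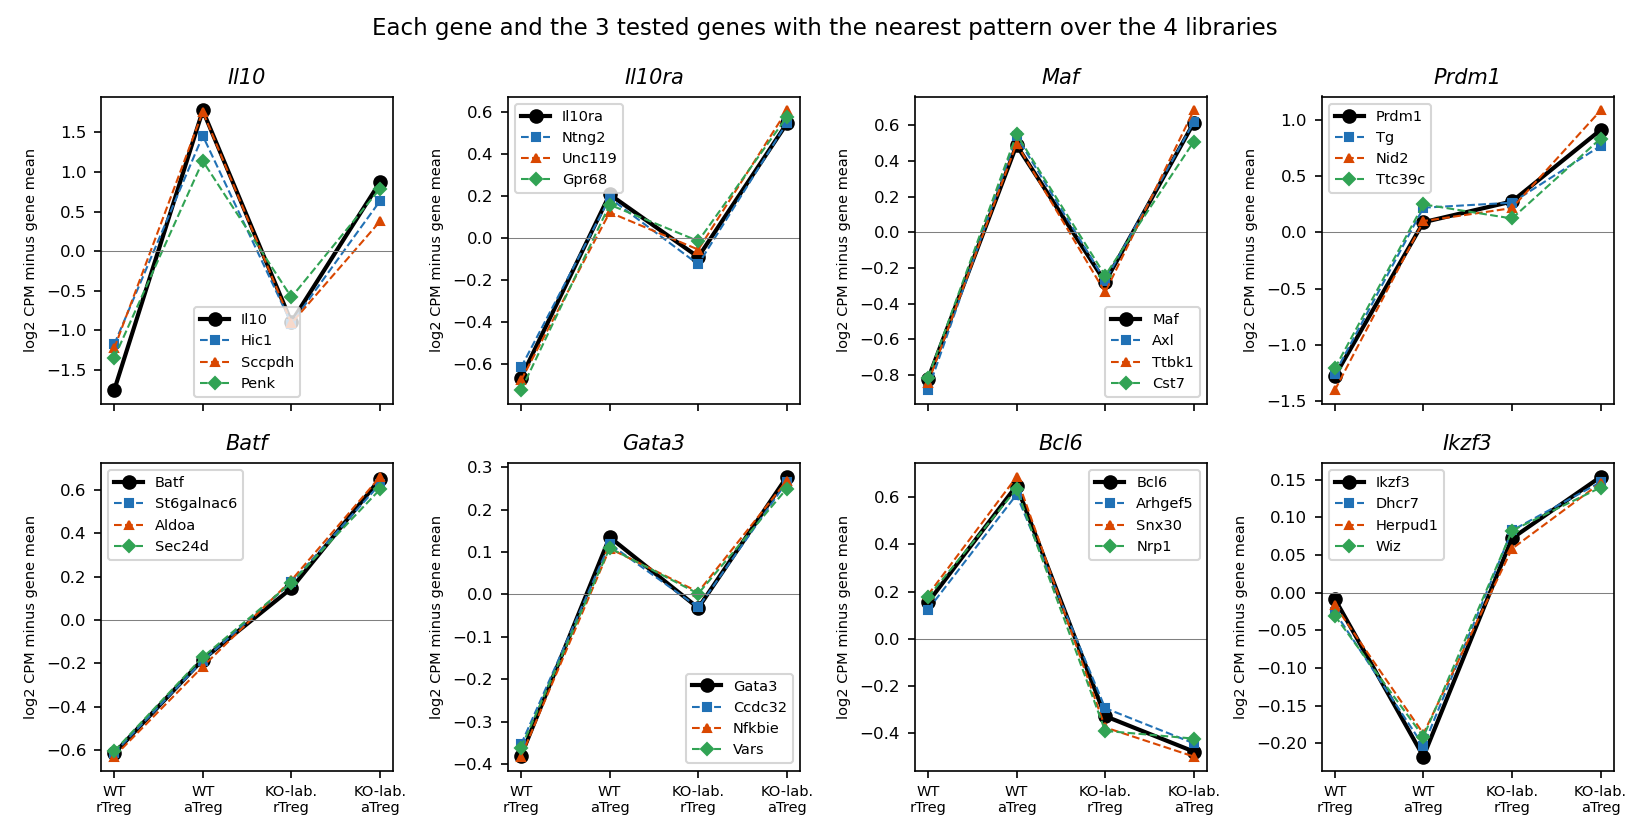
Log2 CPM minus the gene's mean over the 4 libraries (vertical axis) for each of the 8 genes (black) and the 3 tested genes nearest to it in pattern (coloured, dashed), by library on the horizontal axis. Vertical scales differ between panels, and Il10 spans the widest range, with its nearest genes lying off it by 0.35 or more on average.

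Of 7 tested relatives of the 6 factors, 2 (Mafg and Gata1) rose and 3 (Maff, Mafk and Ikzf4) fell with genotype, while Ikzf1 and Ikzf2 were not called. Over all tested genes, 24.4% were higher and 22.8% lower with genotype, and 7 genes are few to set against these shares. Mafg, a small Maf protein gene that lacks an activation domain and also rose with state, had genotype ratios of 0.25 in rTreg and 0.30 in aTreg, Mafk -0.37 and -0.51, and Maff -0.22 and -0.56. Ikzf4, the Eos gene, a corepressor partner of Foxp3, had -0.33 and -0.44, and Ikzf2, the Helios gene, 0.14 and -0.21. Gata1, the factor of red blood cell precursors, was at 32.7 and 22.0 CPM in the WT rTreg and aTreg libraries and 41.0 and 33.2 CPM in the KO-labelled ones, against 113 to 179 CPM for Gata3, and fell with state, as did Ikzf1. Mafa, Batf2, Batf3, Gata2 and Bcl6b were each at or below 1.07 CPM in every library, and Ikzf5 at or below 3.58 CPM.

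Of 21 tested receptors and factors that induce or limit IL-10 in T cells, 4 rose and 8 fell with genotype, where 47.2% of all tested genes were called (24.4% higher and 22.8% lower), with a median ratio of -0.042 in rTreg and -0.14 in aTreg. Bhlhe40, a repressor of Il10 in T cells, was at 100 CPM in WT rTreg and 208 CPM in WT aTreg, against 226 and 414 CPM in the KO-labelled rTreg and aTreg libraries, and rose with genotype by 1.08 log2 units (SE 0.0710, edgeR adjusted p = 2.13e-07). The costimulatory receptor gene Icos (1.19 in rTreg and 0.64 in aTreg) and the IL-2 receptor genes Il2ra and Il2rb also rose. The 8 that fell were the IL-6 receptor genes Il6ra and Il6st, the TGF-beta receptor genes Tgfbr1 and Tgfbr2, the AP-1 genes Junb, Jund and Fosl2, and Stat5b. Junb, a partner of BATF, had ratios of -0.52 in rTreg and -0.92 in aTreg, opposite in sign to those of Batf. Irf4, the other partner of BATF, had 0.25 and -0.18 and was not called. With state, 8 of the 21 rose and 2, Il6ra and Il6st, fell, where 7.91% of all tested genes were higher and 5.44% lower. Among those that rose were Ahr (0.88 for WT and 1.07 for the KO-labelled pair), Nfil3 (0.91 and 0.33) and Nfatc1 (0.64 and 0.41).

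Of 16 surface and effector genes of effector Treg cells, all tested, 15 rose in aTreg, where 7.91% of all tested genes were higher, with a median ratio of 0.85 for WT and 0.63 for the KO-labelled pair, and Ctla4 was not called. With genotype, 11 rose and none fell, where 24.4% of all tested genes were higher and 22.8% lower, with a median of 0.52 in rTreg and 0.41 in aTreg. Of the other 5, Ccr8 and Fgl2 had a positive ratio in rTreg and a negative one in aTreg with both counting intervals clear of 0, as Il10 had. For Ccr8 they were 0.56 [0.37 to 0.75] and -0.29 [-0.42 to -0.16], and for Fgl2 0.65 [0.46 to 0.85] and -0.19 [-0.31 to -0.070]. For the remaining 3, 1 of the intervals included 0, in rTreg for Hic1 (0.26 [-0.17 to 0.71], and -0.82 in aTreg) and Areg (0.028 [-0.33 to 0.38], and -0.56 in aTreg), and in aTreg for Ctla4 (-0.010 [-0.059 to 0.038], and 0.22 in rTreg). Klrg1, a receptor of terminally differentiated cells, had 1.21 and 1.42, the inhibitory receptor gene Tigit 1.57 and 0.70, and Ebi3, a subunit of IL-27 and IL-35, 1.36 and 0.43. The list overlaps the next ones in Tigit, Ctla4, Klrg1, Ccr8, Il1rl1 and Areg.

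Of 6 tested coinhibitory genes linked to c-Maf and Blimp-1, 4 rose with state (Lag3, Tigit, Havcr2 and Pdcd1), where 7.91% of all tested genes were higher. Havcr2, which encodes the inhibitory receptor TIM-3, was at 1.67 CPM in WT rTreg and 2.43 CPM in WT aTreg, against 15.3 and 40.9 CPM in the KO-labelled rTreg and aTreg libraries, with genotype ratios of 3.12 and 4.02, the largest of these 6. With genotype, for which 47.2% of all tested genes were called, Tigit and Havcr2 rose and Pdcd1, which encodes PD-1, fell (-0.21 in rTreg and -0.39 in aTreg), while Lag3 was not called (0.27 and 0.15). Havcr2 was under 5 CPM in each WT library and met the mean minimum only through the KO-labelled libraries. Its genotype call is therefore not independent of the level filter. Of 7 tested genes linked to GATA3, 6 rose with state, against the same 7.91%. With genotype, Klrg1 and Il1rl1, the IL-33 receptor gene (0.24 and 0.73), rose, and Il9r fell (-0.30 and -0.18).

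Of 13 tested follicular genes linked to BCL6 in T cells, 7 fell and 1 rose with genotype, where 22.8% of all tested genes were lower and 24.4% higher. Tox, Tox2, Tcf7, Id3, Pdcd1, Btla and Cd200 fell with genotype and Slamf6 rose, with a median ratio of -0.16 in rTreg and -0.39 in aTreg. Tox2 was at 13.7 CPM in WT rTreg and 50.2 CPM in WT aTreg, against 9.76 and 19.1 CPM in the KO-labelled rTreg and aTreg libraries. Like Bcl6 it was highest in WT aTreg, and its genotype ratio was -0.49 in rTreg and -1.39 in aTreg. The follicle-homing receptor gene Cxcr5 was at 18.6, 42.3, 20.2 and 22.3 CPM in the same libraries, with genotype ratios of 0.12 and -0.92, and was not called for genotype (edgeR adjusted p = 0.0693). With state, Tox2, Cxcr5, Pdcd1 and S1pr2 rose, and Tcf7, Lef1 and Btla fell, where 7.91% of all tested genes were higher and 5.44% lower.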

How the data were processed

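Messenger RNA was measured in 4 libraries, 1 per genotype and state. Per the submitters' processing notes, HISAT2 2.2.1, featureCounts 2.0.1 and the build GRCm38 were used; the labels state no annotation or strand setting. The deposited table of read counts per gene symbol is not normalized. A second file deposited by the authors gives variance-stabilised values on a log2-like scale and, per the file headers, the authors' log2 fold change and its error, a mean signal of counts divided by size factors, a test score (the log2 fold change divided by its error), p-values and adjusted p-values.

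Scaling used TMM factors (R 4.3.3, edgeR 4.0.16). Ratios are differences of log2 CPM with a prior count of 2. Intervals at 95% are Clopper-Pearson intervals of 1 count given the sum of both, or, for a difference of 2 ratios, normal intervals from the counts. Copies made by PCR are not separate molecules, so these intervals hold counting error alone. The 9680 genes averaging 5 CPM or more were tested with edgeR's quasi-likelihood test with state and genotype as terms; the code was tested on simulated data. DESeq2 1.42.0, other scalings, no level filter, a prior count of 0.5 and the deposited variance-stabilised values were alternatives. Positions and exon lengths come from GENCODE M21 (GRCm38), and promoter sequences from RefSeq. Genes named beyond the 8 are the relatives, up to 4 tested genes per list with the largest ratio, genes of the same signalling step, those needed to name small counts, and the 3 genes most alike in pattern. Predicted genes, pseudogenes and antigen receptor segments were left out of the last. The 8 genes and all lists were chosen with earlier results of these data known. Some genes of these lists are not reported here.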

Additional observations from a re-analysis of the deposited data

Results flagged for a closer look

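Il10 moved in opposite directions between genotypes in the 2 states, with both counting intervals clear of 0: the log2 ratio of KO-labelled over WT was 0.86 in rTreg and -0.90 in aTreg. The difference between the states was not tested. Ikzf3 likewise moved in opposite directions between states in the 2 genotypes, with a log2 ratio of aTreg over rTreg of -0.21 for WT and 0.08 for the KO-labelled libraries, a difference that was not tested either.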

How the results depend on the processing

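No ratio of the 8 genes whose counting interval excluded 0 changed sign under upper-quartile scaling, DESeq2 size factors, a prior count of 0.5 or the variance-stabilised values. With the states as replicates, 1 of the 8 genes was called for genotype, against 7, and 1626 of all tested genes, against 4573. With the genotypes as replicates, 0 were called for state, against 6, and 0 of all tested genes, against 1293, with 328 genes at an unadjusted p under 0.05. DESeq2 with both terms called 2527 genes for genotype and 423 for state. The deposited variance-stabilised values compress low genes: between them 0 of the 8 were at least 2-fold apart between genotypes in either state and 0 between states in the KO-labelled pair, and 0 had genotype ratios 1 log2 unit apart between states (Il10: -0.92), an alternative chosen after seeing the data. No library could be left out of the test, since 3 libraries leave no residual degree of freedom; the ratios within a state or genotype stand in for it. No paired analysis was possible because the labels give no replicate numbers. Il10 rests on 85 counts in WT rTreg.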

Other observations

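Type 2 cytokine genes, which GATA3 controls in helper T cells, were low, at or below 1.39 CPM in every library. Il4 was at 0.143 and 1.12 CPM in the WT rTreg and aTreg libraries and at 0.965 and 1.39 CPM in the KO-labelled ones. Il13 had no count in WT rTreg and was at 0.0971, 0.170 and 0.799 CPM in WT aTreg and the KO-labelled rTreg and aTreg libraries, and Il5 had a count in KO-labelled aTreg alone (0.0533 CPM). These genes lay below the level tested.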
